A study of Mus musculus with 6 samples.

Results

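C2C12 cells are an established line of mouse myoblasts (strain C3H) that divide in serum and form myotubes when serum is withdrawn. Proliferating C2C12 myoblasts in medium with fetal calf serum carried a lentivirus with a short hairpin against Kap1 (sh-Kap1, the knockdown) or, as the control, a lentivirus with a hairpin against luciferase (sh-Luc). The knockdown group and the control group had 2 libraries each, replicates 1 and 2, so that 4 of the 6 libraries of the study were compared. The other 2 libraries, 1 knockdown and 1 control, came from cells after 48 hours of differentiation. They entered the same statistical fit, and their values are given where they bear on a myoblast gene. The labels name no second hairpin against Kap1, do not say whether the replicates were separate cultures or transductions, and describe the RNA as cytoplasmic and polyA-selected.

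KAP1, also called TRIM28 and encoded by Trim28, is a scaffold protein that KRAB zinc finger proteins bring to DNA. It recruits the histone methyltransferase SETDB1, heterochromatin protein 1 and the NuRD complex, and it is best known for keeping transposable elements and imprinted regions silent. In muscle cells it has also been placed with the transcription factors MyoD and Mef2, together with coactivators and corepressors, and the study's title concerns a phosphorylation switch of KAP1 that acts on MyoD.

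Reads on genes numbered 40654627 to 46655991 in the 4 myoblast libraries. Replicates 1 and 2 stood apart in both groups. Of 12593 genes with a mean of at least 1 CPM (reads scaled to library size by edgeR's TMM factors), 1125 differed at least 2-fold between the 2 knockdown libraries and 888 between the 2 control libraries, and 687 did so in the same direction in both groups. The files of replicate 1 carry a mark in their names, which the sources used here do not explain and those of replicate 2 lack. Each gene was therefore followed within pairs, replicate 1 with replicate 1 and replicate 2 with replicate 2, and tested in an edgeR quasi-likelihood fit with the replicate number as a block. In that fit 632 of 16472 tested genes (3.84%) passed an adjusted p of 0.05. Of these, 412 (2.50% of the genes tested) were higher and 220 (1.34%) were lower in the knockdown. Without the block, edgeR called 0 genes, at an unadjusted p under 0.05 there were 335 higher and 119 lower genes, and DESeq2 called 37 higher and 13 lower genes. Of the genes that DESeq2 called without the block, 34 higher and 13 lower genes, Trim28 among them, were also called by the blocked edgeR fit. Every edgeR call described here therefore rests on the pairing of the replicate numbers and on 1 residual degree of freedom. The fit draws each gene's spread toward a trend over all genes, so a gene can be called although its pairs differ. Among called genes with the same sign in both pairs, 54 higher and 13 lower ones differed over 2-fold between the pairs. The p-values measure the spread between these libraries as shared over genes, and this spread may be technical.

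Both pairs pointed the same way for 410 of the 412 higher genes (2.49% of the genes tested) and for 218 of the 220 lower genes (1.32%). The blocked test weighs the mean of the pairs against their disagreement, so called genes tend to agree by construction. Over all genes tested, 62.6% had the same sign in both pairs. The higher genes that moved alike had a median pair difference of 1.03 in pair 1 (both libraries of replicate 1) and 0.953 in pair 2 (both of replicate 2), on the log2 scale, and the lower genes one of -0.74 and -0.66. At least 2-fold in each pair were 162 of the higher and 42 of the lower genes, and at least 4-fold in each pair were 47 and 9. Among all genes tested, the pair differences correlated across genes with r = 0.44 (Spearman's rank correlation 0.35). This is a description, since genes of 1 library are not independent replicates. Only 2 genes with a mean of at least 1 CPM, Col14a1 and Gsta3, moved at least 2-fold in opposite directions, whereas 134 moved at least 2-fold in the same direction in both pairs, 98 upward and 36 downward. The knockdown and control libraries did not overlap for 292 of the higher and 128 of the lower called genes. Over all genes tested, non-overlap was seen for 13.5% in the higher and 13.1% in the lower direction.

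**Figure D1:**
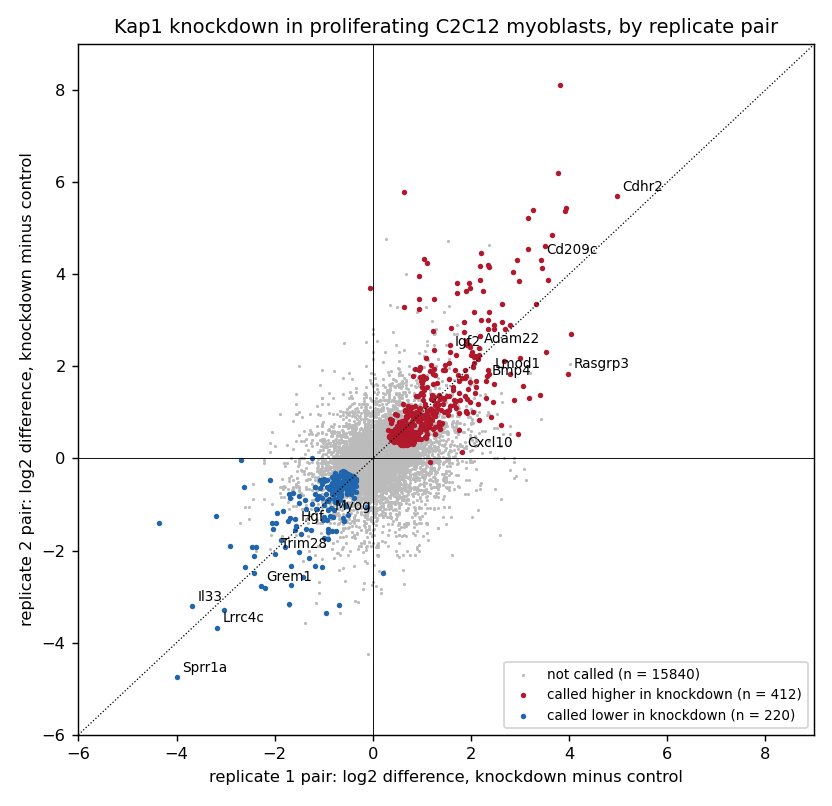
Each point is a tested gene, placed by its log2 difference (knockdown minus control) in pair 1 on the x axis and in pair 2 on the y axis, and coloured by the call of the blocked edgeR fit. The called genes lie along the diagonal, with Cdhr2 and Cd209c at the upper end and Sprr1a and Il33 at the lower end.

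Neighbouring genes of one family moved together at several places, and the stretches upstream of 2 such families are shown here because they hold a shared motif in genes that moved in opposite directions. The small proline-rich genes Sprr1a, Sprr2h and Sprr2k, which encode precursors of the cornified envelope of skin, and their neighbour Prr9 were lower in the knockdown, as was Serpinb2 of another cluster. The alpha-1 antitrypsin genes Serpina1a to Serpina1d, which encode inhibitors of neutrophil elastase made mainly in liver, were higher. The sequences are 80-base windows from RefSeq's mouse promoters (GRCm38.p6), read 5′ to 3′ on the gene's strand and lying wholly upstream of the start site, with every AP-1 motif (TGANTCA, where N is any base) in capitals. They are chr3:92485955-92486034 on the minus strand for Sprr1a, chr3:92385450-92385529 on the plus strand for Sprr2h, chr3:92432363-92432442 on the plus strand for Sprr2k, chr3:92124043-92124122 on the minus strand for Prr9, chr1:107511292-107511371 on the plus strand for Serpinb2, chr12:103863790-103863869 on the minus strand for Serpina1a, chr12:103738360-103738439 on the minus strand for Serpina1b, chr12:103905121-103905200 on the minus strand for Serpina1c and chr12:103773804-103773883 on the minus strand for Serpina1d.
Sprr1a: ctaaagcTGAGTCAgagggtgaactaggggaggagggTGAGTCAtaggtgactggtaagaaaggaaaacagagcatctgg
Sprr2h: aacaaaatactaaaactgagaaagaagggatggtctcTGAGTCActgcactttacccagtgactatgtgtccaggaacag
Sprr2k: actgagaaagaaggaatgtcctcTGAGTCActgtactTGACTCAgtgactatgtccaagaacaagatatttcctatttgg
Prr9: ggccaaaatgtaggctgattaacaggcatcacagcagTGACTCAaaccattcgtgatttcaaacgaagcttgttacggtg
Serpinb2: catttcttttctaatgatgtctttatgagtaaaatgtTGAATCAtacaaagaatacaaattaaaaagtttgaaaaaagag
Serpina1a: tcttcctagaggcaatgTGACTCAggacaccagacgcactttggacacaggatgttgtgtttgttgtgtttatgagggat
Serpina1b: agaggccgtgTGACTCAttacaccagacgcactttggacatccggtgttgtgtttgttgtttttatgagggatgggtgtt
Serpina1c: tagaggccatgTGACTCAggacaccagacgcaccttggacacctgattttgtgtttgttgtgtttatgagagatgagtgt
Serpina1d: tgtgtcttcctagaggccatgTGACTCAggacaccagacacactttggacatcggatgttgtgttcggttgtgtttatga
The windows were chosen for holding the AP-1 motif, the site of Fos and Jun dimers, which lies between 240 and 88 bases before the start. Sprr1a and Sprr2k hold it at 2 places. Among genes with a promoter window in the table, the motif was present within 300 bases around the start, on either strand, in 13% of 169 genes called lower, in 10.4% of 280 genes called higher and in 6.67% of all 11024 tested genes. The TATA box (TATAAA, either strand) was present in 18.3% of the lower genes, 11.8% of the higher genes and 9.23% of all. A match is a description of the letters and not of a bound site. The 4 Serpina1 copies share 71.7% to 91.7% of the 60 bases that start at the motif, compared without gaps. These bases lie upstream of the start, so they do not show how alike the transcripts are. Whether the counting split reads between the copies was not tested.

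The targeted gene fell in both pairs. Trim28 had 150.2 and 102 CPM in the knockdown libraries, against 596 and 428 CPM in the control libraries. The groups did not overlap, and the pair differences were -1.99 and -2.07 (log2 change -2.03 ± 0.10, adjusted p = 2.64e-05). After 48 hours of differentiation Trim28 had 114 CPM in the knockdown library, against 394 CPM in the control library. Without the block the edgeR log2 change was -2.02 with an adjusted p of 1, whereas DESeq2 without the block called Trim28 (log2 change -2.02, adjusted p = 4.78e-07). Over the edgeR fits that left out each library in turn, the log2 change ran from -2.33 to -1.76.

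Of 29 tested genes for KAP1 and its heterochromatin partners, 2 rose and 1 (Trim28 itself) fell, beside 3.84% of all genes called, and the median log2 change was -0.06, against -0.01 for all genes tested. For this and every list below, the shares called over all genes tested were 2.50% higher and 1.34% lower. Trim24, a related TRIM protein that forms complexes with KAP1, had 50.5 and 97.4 CPM in the knockdown libraries, against 32 and 54.9 CPM in the control libraries, with pair differences of 0.65 and 0.83 (log2 change 0.74 ± 0.10, adjusted p = 0.00282), with groups that overlapped, as replicate 2 was higher in both. Morc3, an ATPase found at heterochromatin, had 101 and 109.8 CPM in knockdown cells, against 78.4 and 76.3 CPM in control cells and did not overlap (log2 change 0.45 ± 0.10, adjusted p = 0.0306), a call that DESeq2 did not make. Setdb1, the methyltransferase recruited by KAP1, had 147 and 89.1 CPM in knockdown cells, against 106 and 79.4 CPM in control cells (adjusted p = 0.139), and the heterochromatin protein 1 genes Cbx1, Cbx3 and Cbx5 had log2 changes of 0.04 ± 0.094, -0.21 ± 0.094 and -0.28 ± 0.097. Of 24 cofactors of MyoD and Mef2, 1 fell and none rose. The one that fell was the deacetylase gene Sirt1, with 22 and 28 CPM in knockdown cells, against 30.8 and 39.4 CPM in control cells (pair differences -0.49 and -0.49, log2 change -0.49 ± 0.10, adjusted p = 0.0245), a call that DESeq2 did not make.

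The largest rises that were alike in both pairs, in genes that averaged 1 CPM or more and did not overlap, began at the smaller pair difference of 4.98 for Cdhr2 and ended at 2.11 for Col11a1 (log2 scale, with a prior count of 2), 15 genes in all. Cdhr2, a cadherin of the adhesion complex of brush border microvilli, had 67 and 158 counts in the knockdown libraries, against 0 and 1 in the control libraries. Cd209c, a C-type lectin of the DC-SIGN family, had 19.07 and 70.4 CPM in the knockdown libraries, against 1.74 and 3.48 CPM in the control libraries. Adam22, an ADAM protein without protease activity that serves as a receptor for LGI1 in neurons, had 20.7 and 53.7 CPM in knockdown cells, against 4.6 and 10.1 CPM in control cells, and its pair differences were 2.16 and 2.4 (log2 change 2.3 ± 0.12, adjusted p = 2.7e-05). For Cd209c and Adam22 both knockdown libraries stood above both control libraries although replicate 2 was the higher one in each group. Klhdc7a, a kelch domain gene, had 1.58 and 5.31 CPM in the knockdown libraries, against 0.218 and 0.479 CPM in the control libraries. Epas1, which encodes the hypoxia-inducible factor HIF-2 alpha, had 0.95 and 5.99 CPM in knockdown cells, against 0.169 and 0.227 CPM in control cells, with pair differences of 2.21 and 4.46 that differed more than 2-fold. Of 25 tested genes of the hypoxia response, 1 was called, Epas1. Cables1, an adaptor that links Cdk5 to Abl kinase, had 2.94 and 4.64 CPM in the knockdown libraries, against 0.629 and 1.01 CPM in the control libraries, and Col27a1, a fibrillar collagen, had 11.9 and 4.87 CPM in knockdown cells, against 2.64 and 0.984 CPM in control cells. Their pair differences, 2.14 and 2.15 for Cables1 and 2.16 and 2.26 for Col27a1, were close to each other. Also in the 15 were Kank4, Serpina1d and the vomeronasal receptor pseudogene Vmn2r-ps119, together with 4 genes to which no role is given here. These, Gm11331, Gm13988, Gm11380 and 4933427I04Rik, had log2 differences of 2.85 to 3.26 in pair 1 and 4.04 to 5.39 in pair 2.

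**Figure D2:**
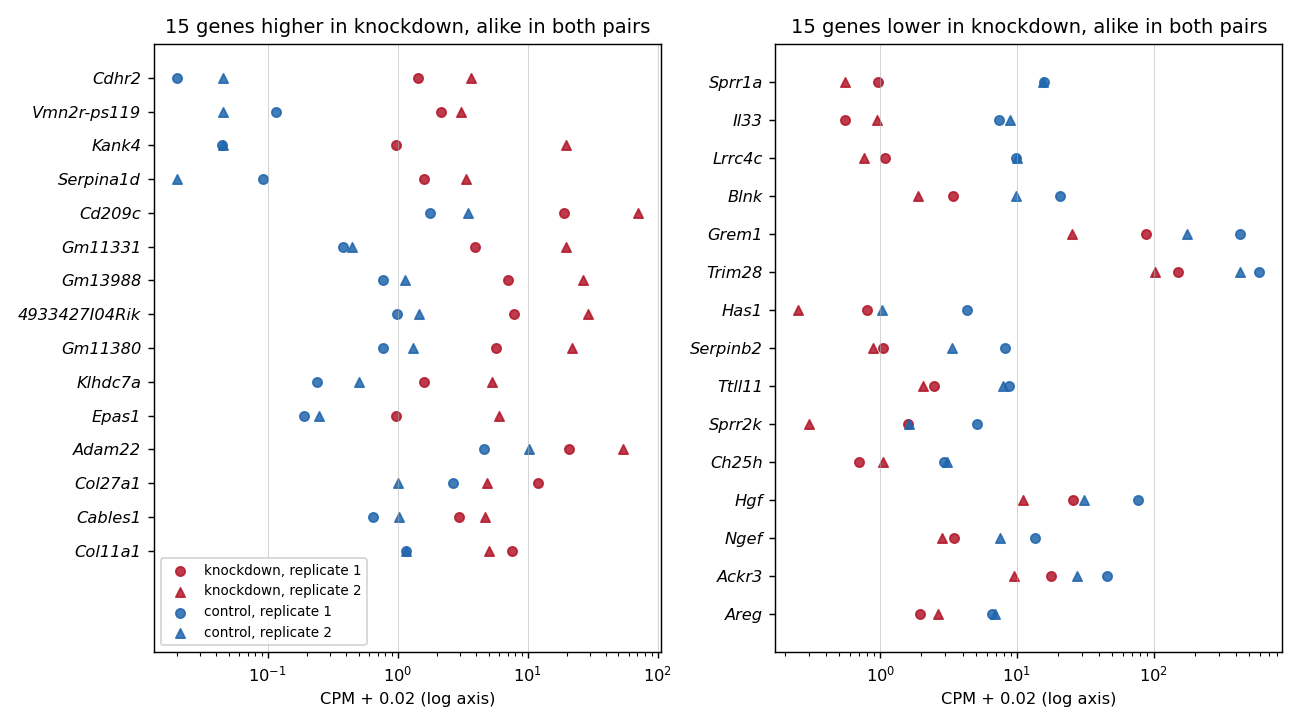
CPM of the 15 genes with the largest rises (left) and falls (right) alike in both pairs, on a log axis after adding 0.02, with red for knockdown and blue for control libraries, circles for replicate 1 and triangles for replicate 2. In every row both red points lie on one side of both blue points, from Cdhr2 at 1.42 and 3.67 CPM against 0 and 0.0252 CPM to Areg at 1.92 and 2.65 CPM against 6.51 and 6.84 CPM.

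A set of genes that was near silent in control myoblasts was read in both knockdown libraries. By the rule of 3 or fewer counts over both control libraries and 10 or more in each knockdown library, 22 genes qualified, 19 of them with a symbol, while the mirror rule for genes near silent in the knockdown found 2. Since the rule picked them by these counts, their rise is a description. Kank4, an adaptor that links focal adhesions to microtubules, had 45 and 845 counts in the knockdown libraries, against 1 and 1 in the control libraries, which is 0.95 and 19.6 CPM in the knockdown, against 0.0242 and 0.0252 CPM in the control, so that most of its reads came from knockdown replicate 2. Col26a1, a collagen gene, had 38 and 114 counts in the knockdown, against 2 and 1 in the control. Sstr5, a somatostatin receptor, had 90 and 11 counts in the knockdown, against 3 and 0 in the control, and differed from most of the set in being higher in replicate 1. Of the 22 genes, 19 had the larger CPM in knockdown replicate 2. The set also held the vomeronasal pseudogene Vmn1r-ps120 (40 and 56 counts in the knockdown, against 1 and 0 in the control) and the immunoglobulin segment Igkv4-50 (36 and 47, against 1 and 0). In the libraries taken after 48 hours of differentiation, which did not enter the rule, 19 of the 22 genes had at least 10 counts in the knockdown library and 12 had 3 or fewer in the control library. Kank4 had 264 and 4 counts there, and Serpina1d 462 and 7. Kank4 overlaps an annotated antisense gene, and without a stated strand setting their reads cannot be told apart.

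Genes best known from liver were among them. Of 18 tested liver secretory and detoxification genes, 9 rose and 0 fell, with medians of 1.24 in pair 1 and 0.86 in pair 2, against 0.00 in both pairs for all genes tested. Members of the list that passed only through the knockdown libraries had to differ, so the count is a description. Serpina1d had 75 and 144 counts in the knockdown libraries, against 3 and 0 in the control libraries, and Serpina1a had 12 and 12, against 0 and 0, at least 7.16-fold higher by a floor of 3 counts over the control group. Cyp2b10 and Cyp2b13, neighbouring cytochrome P450 genes that respond to foreign compounds in liver, had 10 and 13 counts, against 0 and 0, and 21 and 16 counts, against 2 and 0. Ggt5, a gamma-glutamyltransferase that cleaves leukotriene C4, had 24 and 43 counts, against 0 and 1. The defining liver genes Alb, Ttr and Fgb had 0 counts in all 4 libraries, and Apoa1 had 3 and 1 counts in the knockdown, against 1 and 0 in the control. With the block, DESeq2 called 2 of the 9 and gave no adjusted p for 4 (Serpina1a, Serpina1b, Serpina1c and Cyp2b10). Total counts as the scaling left 5 of the 9 called, and the myoblast libraries alone left 4, with 3 not tested.

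Some called genes followed one another in gene order. In the RefSeq order of tested genes with a symbol, 33 runs of 2 or more called genes held 73 of 375 placed higher genes. In the lower direction, 14 runs held 29 of 216 placed genes. Untested genes were skipped, so members of a run need not be direct neighbours. The shares called over all genes tested were 2.50% higher and 1.34% lower. How many runs such shares would form was not tested. The longest run comprised the complement protease genes C1ra, C1s1 and C1s2, which start the classical complement cascade, and the related gene C1rl. C1rl had 16.2 and 13.4 CPM in the knockdown libraries, against 9.31 and 7.57 CPM in the control libraries, without overlap and with pair differences of 0.79 and 0.82, and C1s1 had 71.6 and 15.2 CPM in knockdown cells, against 45.1 and 9.56 CPM in control cells, with pair differences of 0.67 and 0.66. C1s1, C1ra and C1s2 overlapped, as replicate 1 was the higher in both groups. In the unpaired fit their signs turned without knockdown replicate 1, to -0.85 for C1s1, -0.47 for C1ra and -0.53 for C1s2. Here and below, such a fit sets 2 libraries of one group against 1 of the other. The gap between replicates then enters the value and cannot be told apart from the effect of the knockdown. Blocked DESeq2 called C1s1 alone of the 4, and the fit of the myoblast libraries alone called C1rl and C1s1. Without control replicate 2 the signs of C1s1 and C1ra also turned, to -0.057 and -0.070. Other runs that were higher joined the antigen transport genes Tap1 and Tap2 with Psmb8, both collagen VI genes Col6a1 and Col6a2, Col4a1 with Col4a2, Smad3 with Smad6, and Sgce with Peg10. Lower runs joined the EGF family ligands Areg and Ereg, and pairs of small proline-rich genes. These runs were picked out after their calls were seen, and paralogs that lie side by side can share reads.

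The largest falls that were alike in both pairs again comprised 15 genes, led by Sprr1a. It had 0.95 and 0.534 CPM in the knockdown libraries, against 15.7 and 15.5 CPM in the control libraries, with pair differences of -3.99 and -4.75 (log2 change -4.4 ± 0.25, adjusted p = 3.12e-05). The control libraries differed by little, and neither knockdown library reached 1 CPM. Il33, a nuclear cytokine released from damaged cells, had 0.528 and 0.928 CPM in knockdown cells, against 7.35 and 8.96 CPM in control cells, and Lrrc4c, the netrin-G1 ligand of the synapse, had 1.06 and 0.743 CPM in knockdown cells, against 9.87 and 10 CPM in control cells. Blnk, an adaptor of B cell receptor signalling, had 3.38 and 1.88 CPM in the knockdown libraries, against 20.8 and 9.84 CPM in the control libraries. Grem1, a secreted antagonist of BMP ligands, had 87.5 and 25.5 CPM in the knockdown libraries, against 427 and 175 CPM in the control libraries, with pair differences of -2.29 and -2.78 (log2 change -2.53 ± 0.13, adjusted p = 7.92e-05). Blnk and Grem1 were lower in replicate 2 than in replicate 1 of both groups, and the groups did not overlap. Has1, a hyaluronan synthase that DESeq2 did not call, had 0.781 and 0.232 CPM in knockdown cells, against 4.28 and 1.01 CPM in control cells, and Ch25h, which makes 25-hydroxycholesterol, had 0.676 and 1.02 CPM in knockdown cells, against 2.9 and 3.05 CPM in control cells. Hgf, the ligand of the Met receptor that activates muscle stem cells, had 25.7 and 11.1 CPM in the knockdown libraries, against 76.5 and 30.8 CPM in the control libraries, and its pair differences of -1.57 and -1.47 were close (log2 change -1.53 ± 0.10, adjusted p = 5.82e-05). Ackr3, a scavenger receptor for CXCL12, had 17.8 and 9.49 CPM in knockdown cells, against 45.8 and 27.5 CPM in control cells. Completing the 15 were Trim28, Serpinb2 (an inhibitor of urokinase), Sprr2k, Ttll11 (a tubulin polyglutamylase), Ngef (a guanine nucleotide exchange factor) and Areg. Their smaller pair differences ran from -1.91 for Serpinb2 to -1.35 for Areg, Trim28 aside.

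Over all genes tested, 1.34% fell and 5255 of 16472 were negative in both pairs. Of 14 tested cornified envelope and keratin genes, 5 fell, 0 rose and 10 had a negative difference in both pairs, with a median log2 change of -0.71. Beside Sprr1a and Sprr2k these were Sprr2h, Sprr2a1 and Pkp1. Pkp1, plakophilin of desmosomes, had 15.8 and 21.7 CPM in the knockdown libraries, against 27.5 and 40.1 CPM in the control libraries. Prr9 outside the list had 2.94 and 0.441 CPM in knockdown cells, against 16.4 and 1.79 CPM in control cells. The keratinocyte markers Krt5 and Krt1 had 0 counts in all 4 libraries, and the sum of the 5 keratinocyte markers was 18.3 and 8.28 CPM in the knockdown, against 28.3 and 9.41 CPM in the control. Blocked DESeq2 called 2 of the 5 and gave no adjusted p for Sprr2a1, and the myoblast libraries alone kept 3, with Sprr2h not tested.

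Collagen genes were called in one direction. Of 18 tested fibrillar and associated collagens, 10 rose and 0 fell, and the medians were 0.64 in pair 1 and 0.58 in pair 2. With the block, DESeq2 called 9 of the 10. Col1a1, a chain of type I collagen, had 5533 and 5993 CPM in the knockdown libraries, against 3342 and 3635 CPM in the control libraries, with pair differences of 0.73 and 0.72 (log2 change 0.72 ± 0.11, adjusted p = 0.00571), and Col1a2, its partner chain, had pair differences of 0.57 and 0.37 (log2 change 0.47 ± 0.11, adjusted p = 0.0499). Col12a1, which coats collagen fibrils, had 713 and 714 CPM in knockdown cells, against 434 and 428 CPM in control cells, and Col6a2, a chain of the microfibrils around muscle fibres, had 188 and 122 CPM in knockdown cells, against 98.9 and 66.7 CPM in control cells. For Col1a1 and Col12a1 the 2 libraries of a group lay close together, for Col6a2 replicate 1 was the higher in both groups, and the groups of all 3 did not overlap. Col11a1, a minor fibril component typical of cartilage, had 7.54 and 5.06 CPM in the knockdown libraries, against 1.14 and 1.14 CPM in the control libraries, the largest rise of the list in both pairs. The rises of Col1a1, Col1a2, Col5a1, Col5a2, Col6a1, Col6a2 and Col12a1 were below 2-fold in each pair. Col3a1, the other abundant fibrillar collagen, had log2 differences of 0.20 and -0.07 in the pairs and was not called (log2 change 0.07 ± 0.11, adjusted p = 0.831).

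The basement membrane moved in both directions. Of 20 tested genes, 5 rose (Col4a1, Col4a2, Col4a5, Lama1 and the heparan sulphate proteoglycan agrin, Agrn) and 3 fell, among them Col18a1 and Lamc1. Col4a2 had 397 and 288 CPM in the knockdown libraries, against 243 and 181 CPM in the control libraries, with pair differences of 0.71 and 0.67 (log2 change 0.69 ± 0.10, adjusted p = 0.00393). Lamc1, the gamma chain shared by most laminins, had 151 and 156 CPM in knockdown cells, against 258 and 228 CPM in control cells, with pair differences of -0.77 and -0.55 (log2 change -0.66 ± 0.10, adjusted p = 0.00596). Neither gene's groups overlapped, so that the main type IV collagen chain genes rose while the common laminin gamma chain fell in the same libraries. Lamb3, a laminin beta chain of epithelial basement membranes, had 10.5 and 5.5 CPM in the knockdown libraries, against 20.4 and 9.44 CPM in the control libraries with pair differences of -0.96 and -0.77. Lama1 rose at low counts, with 2.05 and 1.88 CPM in knockdown cells, against 0.726 and 0.807 CPM in control cells. The groups overlapped for Lamb3, which fell and stands outside the list. In the unpaired fit the sign of Col4a5 turned without control replicate 1 (-0.19) and without knockdown replicate 2 (-0.53). Blocked DESeq2 called 3 higher and 2 lower genes of the list.

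**Figure D3:**
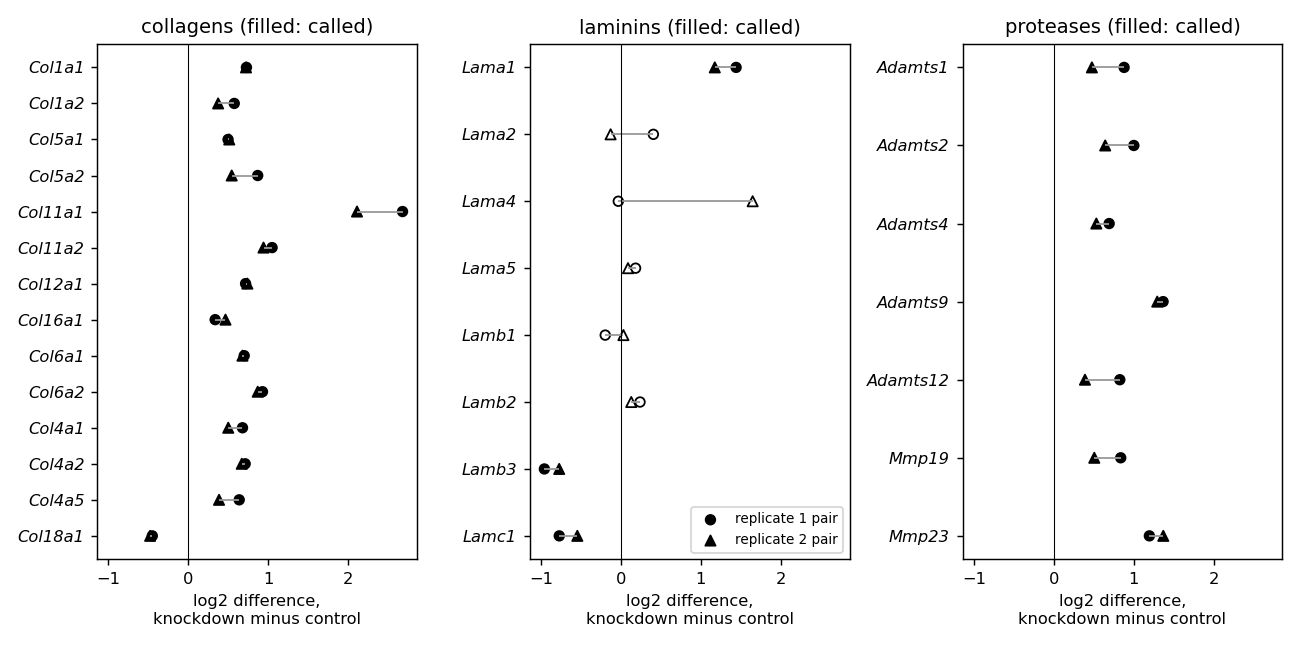
Log2 differences (knockdown minus control) of collagen, laminin and protease genes, with circles for the replicate 1 pair and triangles for the replicate 2 pair, filled where the gene was called. Of the collagens plotted, all but Col18a1 lie right of 0 in both pairs, and Lamb3 and Lamc1 lie left of 0 in both.

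Other matrix genes followed the collagens in part. Of 41 tested glycoprotein and proteoglycan genes, 5 rose and 3 fell. Fn1, fibronectin, had 4339 and 4049 CPM in the knockdown libraries, against 2806 and 2716 CPM in the control libraries (log2 change 0.60 ± 0.11, adjusted p = 0.0135), and Sparc, a collagen-binding glycoprotein, had 3053 and 2988 CPM in knockdown cells, against 1763 and 2214 CPM in control cells. Postn, periostin, had 697 and 263 CPM in the knockdown libraries, against 234 and 119 CPM in the control libraries, and Loxl1, a crosslinking enzyme of elastin, had 100.1 and 132 CPM in knockdown cells, against 45.1 and 81.8 CPM in control cells. All 4 genes were higher in both knockdown libraries than in either control library. Fmod, fibromodulin, rose (1.55 and 1.72 in the pairs) with groups that overlapped (log2 change 1.63 ± 0.16, adjusted p = 0.000604), and without knockdown replicate 1 its unpaired value turned to -0.095. Spp1, osteopontin, fell, with 1071 and 1528 CPM in the knockdown libraries, against 2347 and 2802 CPM in the control libraries and pair differences of -1.13 and -0.87 (log2 change -1.0 ± 0.11, adjusted p = 0.0012). Of 32 proteases and inhibitors of the matrix, 9 rose and 1, Serpinb2, fell. Of the risers, 5 were secreted ADAMTS proteases (Adamts1, Adamts2, Adamts4, Adamts9 and Adamts12). Adamts2, the procollagen N-proteinase, had 90.4 and 84.9 CPM in the knockdown libraries, against 45.1 and 54.3 CPM in the control libraries (log2 change 0.82 ± 0.11, adjusted p = 0.00359), and Adamts4, which cleaves aggrecan, had 29.6 and 21.3 CPM in knockdown cells, against 18.3 and 14.7 CPM in control cells (log2 change 0.62 ± 0.10, adjusted p = 0.00802). The inhibitor Serpine2 rose with overlapping groups and pair differences of 0.92 and 0.44. Without knockdown replicate 1 the unpaired value of Serpine2 turned to -0.88. With the block, DESeq2 called 5 higher and 1 lower of the proteases and inhibitors. Of the fibroblast markers none of 4 tested was called, and the sum of all 6 was 1984 and 3438 CPM in the knockdown, against 1815 and 3579 CPM in the control. In bulk RNA, fewer cells of a type and less RNA per cell cannot be told apart.

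Part of the smooth muscle genes and other targets of serum response factor rose. Of 29 tested members, 8 rose, 0 fell and 21 were above 0 in both pairs, against 5055 of 16472 among all genes tested, and DESeq2 with the block called the same 8. Lmod1, an actin nucleator of smooth muscle, had 30.9 and 6.82 CPM in the knockdown libraries, against 5.95 and 1.87 CPM in the control libraries, without overlap (log2 change 2.17 ± 0.16, adjusted p = 0.000123). Tagln, the actin-binding protein SM22, had 928 and 190.1 CPM in the knockdown libraries, against 296 and 85.1 CPM in the control libraries, and Cnn1, calponin, had 87.2 and 11 CPM in knockdown cells, against 37.8 and 5.25 CPM in control cells. Both showed a large gap between replicates that ran the same way in knockdown and control, so that the groups overlapped, while their pair differences were 1.65 and 1.16 for Tagln and 1.2 and 1.06 for Cnn1. Mylk, the myosin light chain kinase, had 17.6 and 24 CPM in the knockdown libraries, against 7.72 and 9.82 CPM in the control libraries (log2 change 1.24 ± 0.11, adjusted p = 0.000435), and Myl9, the light chain it phosphorylates, had 274 and 283 CPM in knockdown cells, against 153 and 221 CPM in control cells. Acta2 and Actg2, the smooth muscle actins, rose, with pair differences of 0.80 and 0.51 for Acta2 and 0.79 and 0.63 for Actg2. In the unpaired fit without knockdown replicate 1, the signs turned for Tagln (-0.0028), Cnn1 (-0.97), Acta2 (-0.16) and Actg2 (-0.40). The summed level of the 7 smooth muscle markers was 6114 and 2783 CPM in the knockdown, against 3477 and 2048 CPM in the control. Most of it was Acta2, with 4684 and 1755 CPM in the knockdown, against 2691 and 1236 CPM in the control. Myh11, Smtn and Des among them were not called, and Des also counts among the myoblast markers.

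**Figure D4:**
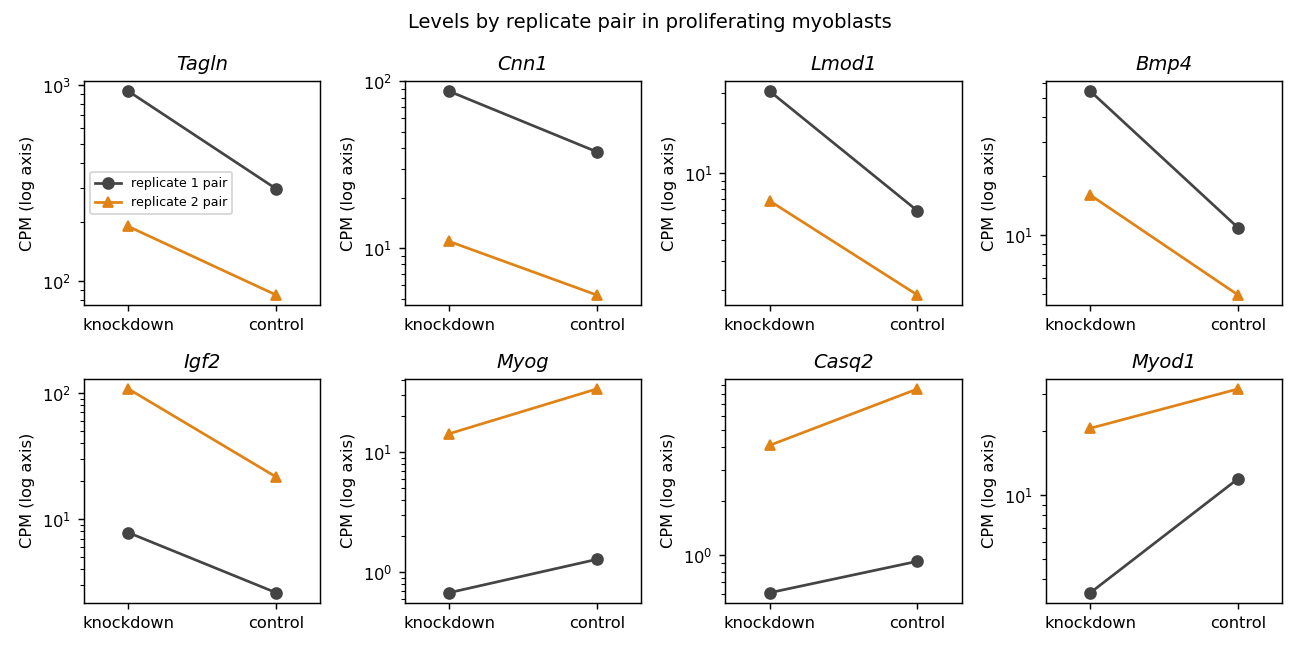
CPM of 8 genes on log axes, with knockdown left and control right and a line joining the libraries of the same replicate number (circles for replicate 1, triangles for replicate 2). The knockdown end is the higher one in both pairs for Tagln, Cnn1, Lmod1, Bmp4 and Igf2 and the lower one for Myog, Casq2 and Myod1, and for Tagln, Cnn1, Igf2, Myog and Casq2 the fold between replicates exceeds that between the arms.

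Members of the TGF beta and BMP axis moved in both directions. Of 43 tested members, 7 rose and 2 fell, with a median log2 change of 0.13. Bmp4, a BMP ligand, had 54.3 and 16 CPM in the knockdown libraries, against 10.9 and 4.92 CPM in the control libraries, without overlap and with pair differences of 2.32 and 1.69 (log2 change 2.04 ± 0.16, adjusted p = 0.00126). Bmp6, a related ligand, had 0.655 and 0.998 CPM in knockdown cells, against 0.194 and 0.202 CPM in control cells. Against these rises of the ligands stood the fall of the antagonist Grem1, described above. Tgfb3 had 76.2 and 72.7 CPM in knockdown cells, against 48.1 and 52 CPM in control cells (log2 change 0.57 ± 0.10, adjusted p = 0.00952), Tgfb2 rose (0.52 and 0.41 in the pairs) and Gdf15, a stress-induced member of the family, rose (1.4 and 0.75). Among intracellular members, the effector Smad3 rose (0.63 and 0.29 in the pairs, log2 change 0.46 ± 0.11, adjusted p = 0.0465) and the inhibitory Smad6 rose (0.49 and 0.71, log2 change 0.59 ± 0.13, adjusted p = 0.0307). The unpaired values turned for Tgfb2 without knockdown replicate 2 (-0.016), and for Smad6 without knockdown replicate 1 (-0.61) and without control replicate 2 (-0.14). With the block, DESeq2 called 3 higher and 1 lower of the 43.

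Of 41 tested growth factor ligands, receptors and binding proteins, 2 rose (Igf2 and Igf2r) and 5 fell (Areg, Ereg, Hgf, Vegfc and Igfbp6), beside 2.50% higher and 1.34% lower over all genes tested. Areg and Ereg, ligands of the EGF receptor, had pair differences of -1.74 and -1.35 for Areg and -0.99 and -1.01 for Ereg, with 1.92 and 2.65 CPM in the knockdown libraries, against 6.51 and 6.84 CPM in the control libraries for Areg and 16.4 and 6.61 CPM in knockdown cells, against 32.7 and 13.3 CPM in control cells for Ereg. Vegfc, a ligand for lymphatic endothelium, fell (-1.0 and -0.45 in the pairs), a call that was lost in blocked DESeq2, in the myoblast libraries alone and with total counts. Igfbp6, a binding protein with preference for IGF-II, had 115 and 152 CPM in the knockdown libraries, against 161 and 213 CPM in the control libraries (log2 change -0.49 ± 0.092, adjusted p = 0.0165). Igf2, the imprinted fetal growth factor, had 7.81 and 108 CPM in the knockdown libraries, against 2.61 and 21.6 CPM in the control libraries, with pair differences of 1.56 and 2.31 (log2 change 2.04 ± 0.18, adjusted p = 0.00369), and its clearance receptor Igf2r had 70.6 and 148 CPM in knockdown cells, against 49.6 and 116 CPM in control cells. Replicate 2 was above replicate 1 by far in both groups for Igf2, and its reads may include those of an overlapping antisense gene that was also called.

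Imprinted genes rose in part. Of 30 tested, 6 rose (Igf2, Igf2r, Peg10, Sgce, Mest and Ddc) and 0 fell, with a median of 0.35. The neighbours Peg10, derived from a retrotransposon and active in placenta, and Sgce, a sarcoglycan, had 47.8 and 81.7 CPM in the knockdown libraries, against 30.2 and 39.8 CPM in the control libraries and 33 and 36.2 CPM in knockdown cells, against 23.2 and 27.3 CPM in control cells. Both were without overlap. Mest had 6.08 and 32.4 CPM in the knockdown libraries, against 3.48 and 14.9 CPM in the control libraries, with pair differences of 0.80 and 1.12. H19, the noncoding neighbour of Igf2, had 213 and 2741 CPM in knockdown cells, against 199 and 1769.8 CPM in control cells, with pair differences of 0.10 and 0.63, and was not called (adjusted p = 0.219). In the unpaired fit without knockdown replicate 2, the values of Igf2, Igf2r, Mest and Ddc turned to -0.63, -0.23, -0.59 and -1.02, and that of Igf2r turned to -0.090 without control replicate 1. Blocked DESeq2 called 3 of the 6.

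In Wnt signalling 1 of 40 tested genes rose and 2 fell, and in Notch signalling 1 of 21 rose and 1 fell. Over all genes tested, 2.50% rose and 1.34% fell, the background for each list of this paragraph. So few calls describe single genes and not their pathways. Tcf7 and Lef1, transcription factors of the Wnt pathway, had 16.1 and 14.2 CPM in the knockdown libraries, against 29.8 and 22.6 CPM in the control libraries and 6.91 and 9.65 CPM in knockdown cells, against 10.8 and 15.6 CPM in control cells, without overlap in either case. Lgr4, a receptor for R-spondins, had 170.5 and 177 CPM in the knockdown libraries, against 132 and 134 CPM in the control libraries (log2 change 0.39 ± 0.092, adjusted p = 0.0484). Lfng, a glycosyltransferase that modifies Notch, had 30.8 and 22.5 CPM in knockdown cells, against 21.1 and 14.6 CPM in control cells, and the Notch target Hes1 fell (-0.58 and -0.35 in the pairs). The value of Hes1 turned to 0.083 without control replicate 2 and 0.028 without knockdown replicate 1 in the unpaired fit. With the block, DESeq2 called Tcf7 and neither Lef1, Lgr4, Lfng nor Hes1. Of 46 guidance genes, 5 rose and 4 fell. Sema3f, a secreted semaphorin, had 3.82 and 11.2 CPM in the knockdown libraries, against 0.895 and 2.78 CPM in the control libraries (log2 change 2.04 ± 0.19, adjusted p = 0.000455), whereas Sema7a fell (-1.38 and -0.89 in the pairs) and the ephrin ligand Efnb2 fell (-0.65 and -0.82). Among 21 cadherins, Fat4, a giant cadherin of planar cell polarity, had 83.6 and 81.8 CPM in the knockdown libraries, against 33.4 and 36.7 CPM in the control libraries (log2 change 1.24 ± 0.10, adjusted p = 0.000169) and Cdhr2 was the other riser. Of 17 integrins, Itga3, a laminin receptor chain, rose (0.72 and 0.56 in the pairs), and Itgb7, a leukocyte chain, had 14.7 and 11.8 CPM in knockdown cells, against 47.3 and 21.6 CPM in control cells. None of the 22 tested clustered protocadherins was called.

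Interferon response genes had unlike medians in the pairs. The median of 60 tested genes was 0.61 in pair 1 and 0.04 in pair 2, and 5 rose and 0 fell. Trim30a had 8.09 and 7.8 CPM in the knockdown libraries, against 4.18 and 3.91 CPM in the control libraries, close to 2-fold in both pairs (log2 change 0.97 ± 0.12, adjusted p = 0.00176). Ifitm3, a membrane protein that blocks virus entry, had 281 and 238 CPM in knockdown cells, against 168 and 174 CPM in control cells (log2 change 0.60 ± 0.11, adjusted p = 0.0121), and Irf7, a regulator of type I interferon, had 1.22 and 0.835 CPM in knockdown cells, against 0.629 and 0.429 CPM in control cells. Iigp1, an interferon-inducible GTPase, was at 2 counts in control replicate 2, with 1.42 and 0.487 CPM in the knockdown libraries, against 0.339 and 0.0505 CPM in the control libraries. Of 17 class I and immunoproteasome genes the neighbours Tap1, Tap2 and Psmb8 rose and none fell, with pair differences of 0.98 and 0.74 for Tap1, 0.90 and 0.58 for Tap2 and 1.3 and 1.63 for Psmb8. Blocked DESeq2 called none of these 3 but 4 of the 5 interferon genes, and the myoblast libraries alone called none and 3, and without knockdown replicate 1 the unpaired value of Psmb8 turned to -0.039. Of 27 chemokines and cytokines, 4 rose, among them Ccl5, Cxcl10 and Il6, and Il33 fell. Ccl5, Cxcl10 and Il6 were under 1 CPM in replicate 2 of both groups, and the pair differences of Cxcl10 were 1.81 and 0.14. Without knockdown replicate 1 the unpaired values turned to -2.32 for Ccl5, -1.64 for Cxcl10 and -1.83 for Il6, and DESeq2 with the block called 1 of the 4, as did the fit of the myoblast libraries alone. None of the 3 macrophage markers tested was called, and the markers summed to 4.12 and 2.18 CPM in the knockdown, against 4.69 and 1.99 CPM in the control.

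Cell cycle genes leaned downward, most of them without passing the test. Among all 16472 genes tested, 8476 had a fitted log2 change below 0 and 5255 were negative in both pairs. All 40 tested genes of mitosis and cytokinesis had a fitted log2 change below 0, also under both other scalings, 32 of them with a negative difference in both pairs, and the medians were -0.42 in pair 1 and -0.12 in pair 2. Cenpf, Ect2 and Kif23 passed the test, 3 of 40 against a background of 1.34%, and 1 did in the myoblast libraries alone. Cenpf, a kinetochore protein, had 118 and 154 CPM in the knockdown libraries, against 206 and 207 CPM in the control libraries (log2 change -0.61 ± 0.11, adjusted p = 0.0151). Ect2, the exchange factor that activates RhoA in cytokinesis, had 103 and 134 CPM in knockdown cells, against 175 and 171 CPM in control cells. Among 40 genes of DNA replication, 29 were negative in both pairs, the median was -0.12 and 0 were called. Mki67, the proliferation marker, had 348 and 633 CPM in the knockdown libraries, against 582 and 713 CPM in the control libraries (adjusted p = 0.167). No CDK inhibitor, D cyclin or pocket protein gene of 15 tested was called. Ccnd1 had pair differences of -0.35 and 0.11 and Cdkn1a of 0.69 and -0.22, and both genes moved in opposite directions in the pairs. Of 25 p53 targets 0 were called. The chromatin proteins Hmga1 and Hmga2, typical of dividing embryonic cells, were chosen after their values were seen. Hmga1 had 130.2 and 139 CPM in the knockdown libraries, against 278 and 244 CPM in the control libraries (log2 change -0.95 ± 0.10, adjusted p = 0.00108), and Hmga2 had 70.4 and 35.2 CPM in knockdown cells, against 141 and 117 CPM in control cells (log2 change -1.36 ± 0.19, adjusted p = 0.0372).

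Of 38 cytoplasmic ribosomal protein genes, 0 were called and the median was -0.02 (0.01 with total counts as the scaling), and of 26 genes of the unfolded protein response and secretory chaperones, 0 were called. Over all genes tested, 2.50% rose and 1.34% fell, the background for the lists of this paragraph. In sterol and fatty acid synthesis 1 of 29 fell, Cyp51, which demethylates lanosterol, with 96 and 214 CPM in the knockdown libraries, against 167 and 344 CPM in the control libraries (log2 change -0.74 ± 0.10, adjusted p = 0.00269). Negative in both pairs were 19 of the 29, against 5255 of 16472 among all genes tested. In glycolysis 1 of 19 fell, Pfkp, a phosphofructokinase, with pair differences of -0.59 and -0.29 (log2 change -0.44 ± 0.10, adjusted p = 0.0484). The call of Pfkp was lost under each of the other scalings, in blocked DESeq2 and in the myoblast libraries alone. Of 27 immediate early genes 1 rose and 3 fell, of which blocked DESeq2 and the fit with total counts each kept 1 and 1, and of 31 ion channel and transporter genes 1 rose and 2 fell (1 and 1 in blocked DESeq2). Slc1a6, a glutamate transporter, had 13.3 and 12.5 CPM in the knockdown libraries, against 3.36 and 3.96 CPM in the control libraries and did not overlap (log2 change 1.82 ± 0.15, adjusted p = 0.000265).

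Of 21 tested myogenic regulators, 1 rose and 2 fell, and the pairs had medians of opposite sign, -0.22 in pair 1 and 0.06 in pair 2. Myog, myogenin, which drives terminal differentiation, had 0.676 and 14.3 CPM in the knockdown libraries, against 1.28 and 33.8 CPM in the control libraries, with pair differences of -0.88 and -1.24 (log2 change -1.18 ± 0.13, adjusted p = 0.00123). Mymx, the fusion protein myomixer, fell, with pair differences of -0.61 and -1.3. Myog and Mymx were far lower in replicate 1 than in replicate 2 of both groups. Blocked DESeq2 and the fit of the myoblast libraries alone each called 1 of the 3 regulators. Without control replicate 2 the unpaired values turned to 2.54 for Myog and 1.95 for Mymx. Myod1, which commits cells to muscle, had 3.44 and 20.7 CPM in the knockdown libraries, against 11.9 and 31.8 CPM in the control libraries, with pair differences of -1.78 and -0.62, and was not called (log2 change -1.12 ± 0.41, adjusted p = 0.409). Its relative Myf5 moved in opposite directions (-0.77 and 0.40 in the pairs). Meox1, a homeobox gene of somites, was the regulator that rose, and it had 0.401 and 0.928 CPM in knockdown cells, against 0.145 and 0.227 CPM in control cells, a call lost under either other scaling. Mymk, the fusion protein myomaker, had 0.465 and 5.68 CPM in the knockdown libraries, against 0.484 and 9.29 CPM in the control libraries (adjusted p = 0.0748). Of 45 contractile genes, 2 rose and 5 fell, and the medians were 0.17 in pair 1 and -0.57 in pair 2, with 19 of 45 of the same sign in both. In the myoblast libraries alone 1 rose and 1 fell, and blocked DESeq2 called 1 higher and 4 lower. Tnnt2, cardiac troponin T, which immature skeletal muscle also uses, had 19.7 and 39.7 CPM in the knockdown libraries, against 44.9 and 60.8 CPM in the control libraries, without overlap (log2 change -0.90 ± 0.15, adjusted p = 0.0202). Casq2, the calcium store protein calsequestrin, had 0.612 and 4.11 CPM in knockdown cells, against 0.919 and 8.5 CPM in control cells, and Ttn, titin, fell (-0.45 and -0.78 in the pairs). Actn3, the alpha-actinin of fast fibres, rose (0.44 and 0.64 in the pairs). The unpaired signs turned without control replicate 2 for Casq2 (1.35) and Ttn (0.57), and for Actn3 without knockdown replicate 2 (-0.70) and without control replicate 1 (-0.034). Of the 9 myoblast markers 8 reached 1 CPM, Pax7 being the exception with 1 and 8 counts in the knockdown, against 1 and 1 in the control. None of the 9 was called by edgeR, and DESeq2 with the block called Itga7, an integrin chain of muscle, lower (-0.64). Des, desmin, had 303 and 751 CPM in the knockdown libraries, against 355 and 657 CPM in the control libraries.

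**Figure D5:**
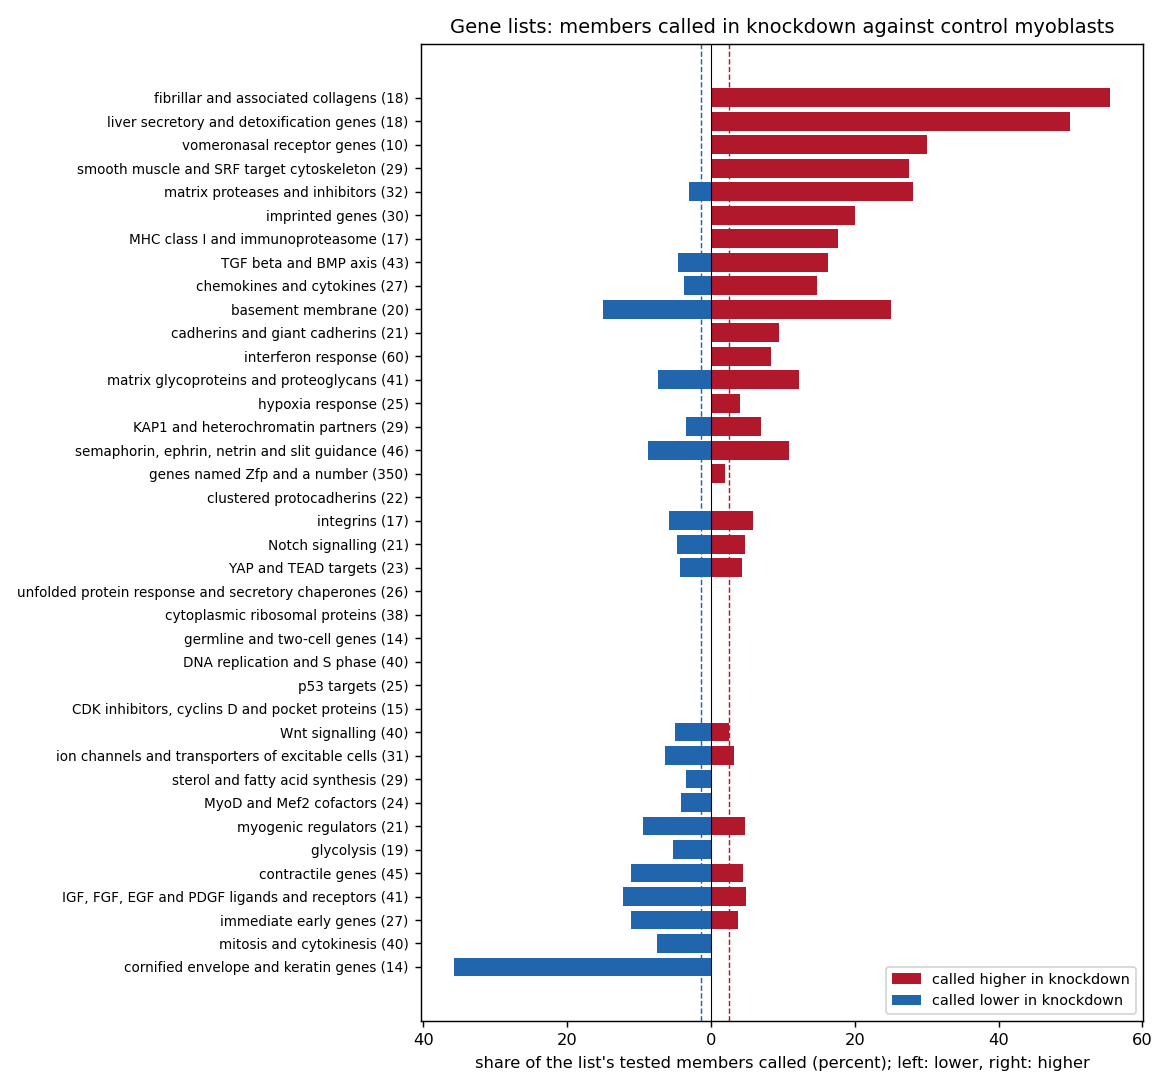
Share of each gene list's tested members (number in brackets) called lower (blue, left of 0) and higher (red, right of 0) in the knockdown, in percent, with dashed lines at the shares over all tested genes. Liver genes and fibrillar collagens extend furthest to the right, at 9 of 18 and 10 of 18 members, and cornified envelope genes furthest to the left, at 5 of 14. Liver and vomeronasal genes that passed the filter only through the knockdown libraries had to differ, so the shares of these lists are a description.

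The zinc finger genes, many of which encode KRAB proteins that bring KAP1 to DNA, leaned upward by little and were called at few places. Of 350 tested genes named Zfp and a number, 7 rose, a share near the 2.50% of all genes, and 0 fell, with a median of 0.08. Above 0 were 225 of the 350, against 7996 of 16472 among all genes tested. In both pairs 159 were positive and 64 negative, against 5055 and 5255 of all genes. The groups did not overlap for 83 in the higher and 28 in the lower direction, against 13.5% and 13.1% of all genes. Zfp78 had 4.22 and 3.92 CPM in the knockdown libraries, against 1.33 and 1.31 CPM in the control libraries (log2 change 1.62 ± 0.24, adjusted p = 0.00507), and Zfp977 had 3.46 and 2.99 CPM in knockdown cells, against 1.26 and 0.757 CPM in control cells (log2 change 1.7 ± 0.26, adjusted p = 0.00627). Zfp110 had 31 and 39.9 CPM in knockdown cells, against 21.4 and 23.3 CPM in control cells. In each of the 7 both knockdown libraries were above both control libraries, and DESeq2 with the block called 1 of them. Of 10 tested vomeronasal receptor genes, 3 rose, among 365 in the files, beside 2.50% of all genes tested. Members that passed the filter only through the knockdown libraries had to differ, so the count is a description. Vmn2r96 had 0.908 and 0.951 CPM in the knockdown libraries, against 0.0484 and 0.0505 CPM in the control libraries. None of the 14 tested genes of the germline and the 2-cell embryo was called, and no germ cell marker reached 1 CPM.

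In the pair of libraries taken after 48 hours of differentiation, 70.6% of the genes higher in myoblasts were also above the control, as were 51.7% of all genes tested, and 68.2% of the lower genes were also below it, as were 48.2% of all genes tested. Those libraries share no sample with the myoblast groups, but they share the replicate 1 block of the fit and have 1 library per arm. Calls there take their spread from the myoblast libraries. Of all genes tested, 9.09% were called higher and 11.2% lower after 48 hours. Of the 412 genes higher in myoblasts, 174 were called higher and 61 called lower there, and of the 220 lower genes, 96 were called lower and 17 called higher. Adam22 had 39.5 CPM in the knockdown library after 48 hours, against 3.06 CPM in the control library, and Il33 had 1.76 CPM, against 44.4 CPM. Both thus moved as in myoblasts. Col6a1 had 698 CPM in the knockdown after 48 hours, against 1701 CPM in the control, the opposite direction to that in myoblasts.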

How the data were processed

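Cytoplasmic polyA RNA of C2C12 cells was sequenced. The authors deposited raw counts of reads for 37991 Ensembl genes. Per the submitters' processing notes, TopHat2 2.0.11, HTSeq and the mm9 build were used. Annotation release, strand setting and chemistry: not given in the sources used here. Groups came from the sample titles, as did the replicate numbers of the myoblast libraries. The titles of the libraries taken after 48 hours carry no number, and these libraries were placed in the block of replicate 1, whose mark in the file names they share. Lines naming no gene were left out (reads outside genes were 5.18% to 6.67% in the myoblast libraries, ambiguous ones 2.86% to 2.93%). Symbols, found for 32919 genes with 99.04% of counts, came from a later annotation matched on the identifier, gene order from RefSeq's GRCm38.p6 table, and promoter windows from RefSeq.

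The test was edgeR 4.0.16's quasi-likelihood test (R 4.3.3, robust, TMM, filterByExpr by group) on all 6 libraries, with a mean per group and the replicate number as a block. It left 1 residual degree of freedom and a biological coefficient of variation of 9.74%, against 2 and 32.9% without the block. Each gene's spread was drawn toward a trend over all genes. The deviations of same-numbered libraries from their group means correlated across genes with r = 0.76 in the 2 myoblast groups. Benjamini-Hochberg adjustment ran over 16472 genes, with a threshold of 0.05. A pair difference is the log2 CPM of knockdown minus control within a replicate number (prior count 2) and has no test. "±" is the standard error of the fitted log2 change. Values are ordered replicate 1, replicate 2. "Alike" means called with the same sign in both pairs. The floor of 3 counts covers counting error only. The fit was first tested on simulated counts with known changes. These gave all genes the common spread of the blocked fit and both groups the same replicate difference. The simulation thus assumed the pairing and cannot check it.

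Named genes were the 15 each way with the largest smaller pair difference (called, mean of at least 1 CPM, no overlap, alike), Trim28, members of fixed lists with the smallest p, near-silent genes and 14 fixed genes. Some called members of lists are not reported here. Others called in a list or lying next to a called gene were added after their values were seen. Members, lists and tests were chosen with earlier results of these data known. Alternatives were no block, DESeq2 1.42.0, other scalings, filters, libraries and prior counts.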

Additional observations from a re-analysis of the deposited data

Results flagged for a closer look

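For 68 of the named genes that were called in myoblasts, the effect of the knockdown differed between the libraries taken after 48 hours of differentiation and the myoblasts. The test was the difference of both effects in the same blocked edgeR fit (adjusted p under 0.05 over all genes). The stage after 48 hours has 1 library per arm, assumed to vary like the myoblast libraries, so the differences have no replicate check at that stage. Each value is the log2 knockdown effect after 48 hours minus that in myoblasts, and a negative one means that the knockdown library after 48 hours stood lower against its control than in myoblasts.

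Among genes that rose in myoblasts and belong to none of the groups named next, it was 1.39 for Adam22, -2.53 for Cd209c, -2.65 for Klhdc7a, -2.47 for Gm11380, -2.81 for Gm13988, -3.8 for Col26a1, -4.08 for Ggt5 and 0.97 for Trim24. Among other genes that fell in myoblasts, it was 2.69 for Sprr1a, 2.57 for Prr9, -2.34 for Pkp1, 2.46 for Lrrc4c, 1.4 for Hgf, 0.71 for Hmga1 and 2.56 for Hmga2. Among collagen and basement membrane genes, it was -1.22 for Col1a1, -1.15 for Col5a1, -1.97 for Col6a1, -2.58 for Col6a2, -3.8 for Col26a1, -1.88 for Col4a1, -1.89 for Col4a2, -0.58 for Col18a1, -2.53 for Lama1, -0.98 for Lamc1 and -1.47 for Agrn. Among other matrix genes, it was -1.08 for Fn1, -0.83 for Sparc, -1.78 for Postn, -1.6 for Loxl1, -1.03 for Fmod, 1.11 for Spp1, -1.5 for Adamts2, -1.79 for Adamts4 and -1.48 for Adamts12. Among smooth muscle and contractile genes, it was -0.92 for Acta2, 2.19 for Cnn1, -1.05 for Lmod1, -3.87 for Tnnt2, -5.45 for Ttn, -5.58 for Casq2 and -2.31 for Actn3.

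Among signalling genes, it was -1.14 for Bmp4, -2.66 for Bmp6, -1.59 for Tgfb2, -1.13 for Tgfb3, -4.83 for Igf2, -1.29 for Igf2r, 1.2 for Lgr4, 1.06 for Itga3 and 3.72 for Itgb7. Among imprinted genes, myogenic genes and cofactors of MyoD and Mef2, it was -2.12 for Mest, -3.51 for Ddc, -3.68 for Myog, -3.93 for Mymx and 0.64 for Sirt1. Among complement, interferon and cytokine genes, it was -1.16 for C1ra, -1.67 for C1s1, -1.88 for C1s2, -2.51 for Iigp1, -1.38 for Irf7, -1.03 for Trim30a, -1.27 for Tap1, -3.3 for Cxcl10 and -3.74 for Il6. Among cell cycle and sterol genes, it was 1.16 for Cenpf, 0.97 for Ect2, 1.11 for Kif23 and 1.1 for Cyp51.

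Over all called genes, the difference passed this test for 139 of 412 genes higher in myoblasts and 96 of 220 genes lower in myoblasts, and for 10.5% of all genes tested. The myoblast effect by which these genes were called is part of the difference tested, so these shares are a description.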

How the results depend on the processing

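The replicate block decides the counts. Without it edgeR called 0 genes higher and 0 lower, and leaving out each library in turn from that fit also gave 0 to 0 in either direction, so no gene counted as alike, 0 also at 2-fold or more. Without the block the edgeR log2 change of Trim28 was -2.02 and did not pass the test. With a library left out it was -1.76 and -2.24 (control replicates 1 and 2) and -2.33 and -1.77 (knockdown replicates 1 and 2). DESeq2 called 198 higher and 133 lower genes with the block, all of them alike in both pairs, of which 183 and 108 were among the genes called by edgeR, and 83 and 25 were at least 2-fold in each pair. Without the block DESeq2 called 37 and 13 genes, all alike, and 28 and 8 at least 2-fold. Of these 37 and 13 genes, 34 and 13 were among the genes called by the blocked edgeR fit, Trim28 among them. With no filter on low counts the blocked fit called 655 and 391 genes (650 and 386 alike), and with at least 1 CPM in 2 myoblast libraries it called 248 and 135, all alike, with 88 and 26 at least 2-fold. The cause of these shifts was not tested. Scaling by DESeq2's size factors (343 and 196) or by total counts (358 and 151) and a fit of the 4 myoblast libraries alone (276 and 153) stayed within 1.5 times of 412 and 220. Near-silent genes numbered 66 when control counts up to 10 were allowed and 199 when 3 counts in each knockdown library sufficed.

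Beside Trim28, 161 tested genes are named. All kept their direction in the unblocked fit and under both other scalings, which moved the median log2 change of all genes by less than 0.1. Of the 141 named genes that were called, Trim28 included, 10 lost the call under size factors and 14 under total counts. In the myoblast libraries alone 26 lost it, and Cyp2b10, Serpina1b, Serpina1c and Sprr2h were not tested. In DESeq2 with the block 41 lost it, and Cyp2b10, Serpina1a, Serpina1b, Serpina1c and Sprr2a1 had no adjusted p. Both scalings ended the calls of Adamts12, Col1a2, Hes1, Il6, Kif23, Meox1, Myl9, Pfkp and Smad3, size factors alone that of Lgr4 and total counts alone those of Hmga2, Serpina1b, Serpina1c, Sprr2a1 and Vegfc. In the unpaired fit, leaving out 1 library turned the sign of 26 named genes that the blocked fit called, whose log2 change then spanned -0.16 to 1.38 for Acta2, -0.40 to 1.79 for Actg2, -0.70 to 1.74 for Actn3, -0.47 to 1.31 for C1ra, -0.85 to 2.18 for C1s1, -0.53 to 2.19 for C1s2, -2.93 to 1.35 for Casq2, -2.32 to 8.45 for Ccl5, -0.97 to 3.23 for Cnn1, -0.53 to 1.61 for Col4a5, -1.64 to 3.57 for Cxcl10, -1.02 to 3.49 for Ddc, -0.095 to 3.43 for Fmod, -1.10 to 0.083 for Hes1, -0.63 to 4.46 for Igf2, -0.23 to 1.14 for Igf2r, -1.83 to 4.31 for Il6, -0.59 to 2.46 for Mest, -4.19 to 1.95 for Mymx, -4.69 to 2.54 for Myog, -0.039 to 3.40 for Psmb8, -0.88 to 2.16 for Serpine2, -0.61 to 1.86 for Smad6, -0.0028 to 2.72 for Tagln, -0.016 to 0.98 for Tgfb2 and -1.73 to 0.57 for Ttn. Further turned values were -0.034 for Actn3 without control replicate 1, -0.070 for C1ra without control replicate 2, -0.057 for C1s1 without control replicate 2, -0.19 for Col4a5 without control replicate 1, 0.028 for Hes1 without knockdown replicate 1, -0.090 for Igf2r without control replicate 1 and -0.14 for Smad6 without control replicate 2. All of these had the same sign in both pairs. Leaving out 1 library sets 2 libraries of one group against 1 of the other, so the gap between replicates enters the value. A turned sign therefore cannot show whether the knockdown effect within pairs is stable.

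At 40654627 to 46655991 reads per library, 3 counts correspond to 0.0634 to 0.0757 CPM, and 80 of the higher and 15 of the lower called genes had a mean under 1 CPM, where a change rests on few reads.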
